A study of Mus musculus with 6 samples.

Results

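Inflammatory chemokine receptors were examined in CD4+ T cells of memory phenotype of mice at the acute clinical phase of EAE (experimental autoimmune encephalomyelitis, an induced inflammatory disease of the central nervous system). The group comprised 7 genes, Ccr1, Ccr2, Ccr4, Ccr8, Cxcr3, Cxcr6 and Cx3cr1, taken as a family by name, with earlier results of these data known. They were represented by 13 of the 45101 probe sets on the array, every one of them annotated to a single gene, with 4 probe sets for Ccr2, 2 each for Ccr1, Cxcr6 and Cx3cr1, and 1 each for Ccr4, Ccr8 and Cxcr3. Spinal cord, where the disease is seated, supplied 3 arrays, and inguinal lymph nodes draining the immunised site supplied 3. All donors were female C57BL/6 mice aged 8 to 10 weeks in which disease had been induced with MOG35-55, a peptide of myelin oligodendrocyte glycoprotein, so that both groups carried the same immunisation and no unimmunised group was analysed here. Neither the number of animals behind an array nor the markers behind the memory phenotype are stated in the labels.

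Chemokine receptors are G protein-coupled receptors of the cell surface that read gradients of secreted chemokines and steer leukocytes toward their source. The inflammatory members are carried by effector and memory T cells and by monocytes, whose ligands are made in inflamed tissue, whereas homeostatic members such as Ccr7 and Cxcr5 place cells within lymphoid organs. Ccr1 and Ccr2 bind CC chemokines made at inflammatory sites and are also prominent on monocytes, Cxcr3 and Cxcr6 are known from type 1 effector cells, Ccr4 and Ccr8 from type 2 and regulatory cells, and Cx3cr1, the fractalkine receptor, from microglia, monocytes and cytotoxic effector lymphocytes.

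The promoters of the receptor genes are shown because 6 of the 7 genes lie on chromosome 9, and because genes of the transcription factor families searched below were measured on the same arrays. RefSeq sequence of build GRCm38.p6 was found for 7 of 7 genes, and the 250 bases before the annotated start were searched on both strands. The core TGTGGT of Runx factors, or its complement ACCACA, was present in 4 of the 7, against 14.0% of 32851 mouse promoters of the same length. These were Ccr1 (chr9:123968693-123968942, minus strand), Cxcr6 (chr9:123806227-123806476, plus strand), Cx3cr1 (chr9:120068297-120068546, minus strand) and Cxcr3 (chrX:101734148-101734397, minus strand). The T-box core TCACAC was found in 1 of the 7, Cxcr3, against 12.3% of all promoters. The sequences of these genes are given 5′ to 3′ on the strand of the gene, with the Runx core in capitals, and in Cxcr3 also the T-box core, which comes first.
Ccr1: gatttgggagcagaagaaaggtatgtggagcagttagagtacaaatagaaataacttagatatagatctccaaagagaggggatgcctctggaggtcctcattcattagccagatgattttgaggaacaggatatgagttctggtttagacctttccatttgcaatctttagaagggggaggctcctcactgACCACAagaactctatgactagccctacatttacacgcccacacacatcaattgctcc
Cxcr6: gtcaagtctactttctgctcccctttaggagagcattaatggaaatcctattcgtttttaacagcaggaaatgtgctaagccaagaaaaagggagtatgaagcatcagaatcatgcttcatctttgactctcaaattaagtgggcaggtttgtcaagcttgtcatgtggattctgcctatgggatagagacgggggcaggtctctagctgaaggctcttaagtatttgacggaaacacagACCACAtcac
Cx3cr1: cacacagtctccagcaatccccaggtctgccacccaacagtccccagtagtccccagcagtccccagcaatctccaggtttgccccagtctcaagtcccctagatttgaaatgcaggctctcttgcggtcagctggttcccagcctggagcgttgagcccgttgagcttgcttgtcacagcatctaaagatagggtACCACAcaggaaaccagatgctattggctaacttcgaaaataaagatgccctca
Cxcr3: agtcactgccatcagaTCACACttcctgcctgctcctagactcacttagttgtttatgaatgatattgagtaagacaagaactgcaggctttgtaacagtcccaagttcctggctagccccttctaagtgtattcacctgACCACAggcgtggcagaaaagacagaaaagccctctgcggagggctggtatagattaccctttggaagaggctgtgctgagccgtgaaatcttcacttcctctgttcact
The Runx core began 58 bases before the start in Ccr1, 10 in Cxcr6, 54 in Cx3cr1 and 110 in Cxcr3. The core GATAA of GATA factors was found in Ccr2 and Ccr8 (22.6% of all promoters) and the AP-1 element TGANTCA in Ccr4 (6.75%). None of the motif matches overlapped another, and a match describes letters in this window and not the binding of a factor.

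Of the 7 receptor genes, 6 had higher mean intensities in spinal cord samples and 1, Ccr4, had a lower mean, with a median log2 change of 1.67 against 0.0019 over all genes. Log2 changes are spinal cord minus lymph node, from the deposited RMA intensities, and each gene is represented by its probe set of highest mean unless another is named. With tissue as the only term, limma with Benjamini-Hochberg adjustment over 18194 genes called 1 receptor, Ccr1, as higher at an adjusted p below 0.05 and called none lower (5 of 7 had an unadjusted p below 0.05). Of all genes, 2.54% were called in either direction, 1.13% higher and 1.41% lower, and 2598 of 18194 had an unadjusted p below 0.05. Arrays carry the numbers 1 to 3 in each tissue, and arrays of the same number deviated together. With that number as a block, 5 receptors were called higher (Ccr1, Ccr2, Ccr8, Cxcr6 and Cx3cr1) and none lower (7 of 7 had an unadjusted p below 0.05). In that fit 11.1% of all genes were called in either direction, 3.67% higher and 7.44% lower. An unadjusted p below 0.05 by limma was then found for 4771 of the 18194 genes. With both arrays of number 1 left out, the blocked fit called 1 receptor, and 329 of 18194 genes in all. Without number 2 or without number 3 it called 0 receptors and 0 genes. Each of these fits had only 2 arrays per tissue left. In bulk RNA such as this, fewer cells of a type and less RNA per cell cannot be told apart. The tissue groups did not overlap in 4 of the 7 (Ccr1, Ccr2, Cxcr6 and Cx3cr1), each time with spinal cord higher, where 18.5% of all genes separated in either direction, 8.81% with spinal cord higher and 9.67% lower. Within the pairs of arrays of the same number, 6 receptors were higher in spinal cord in all 3 pairs, against 20.2% of all genes, and Ccr4 was lower in all 3. An exact two-sided permutation test of 3 against 3 arrays cannot go below p = 0.1.

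**Figure D1:**
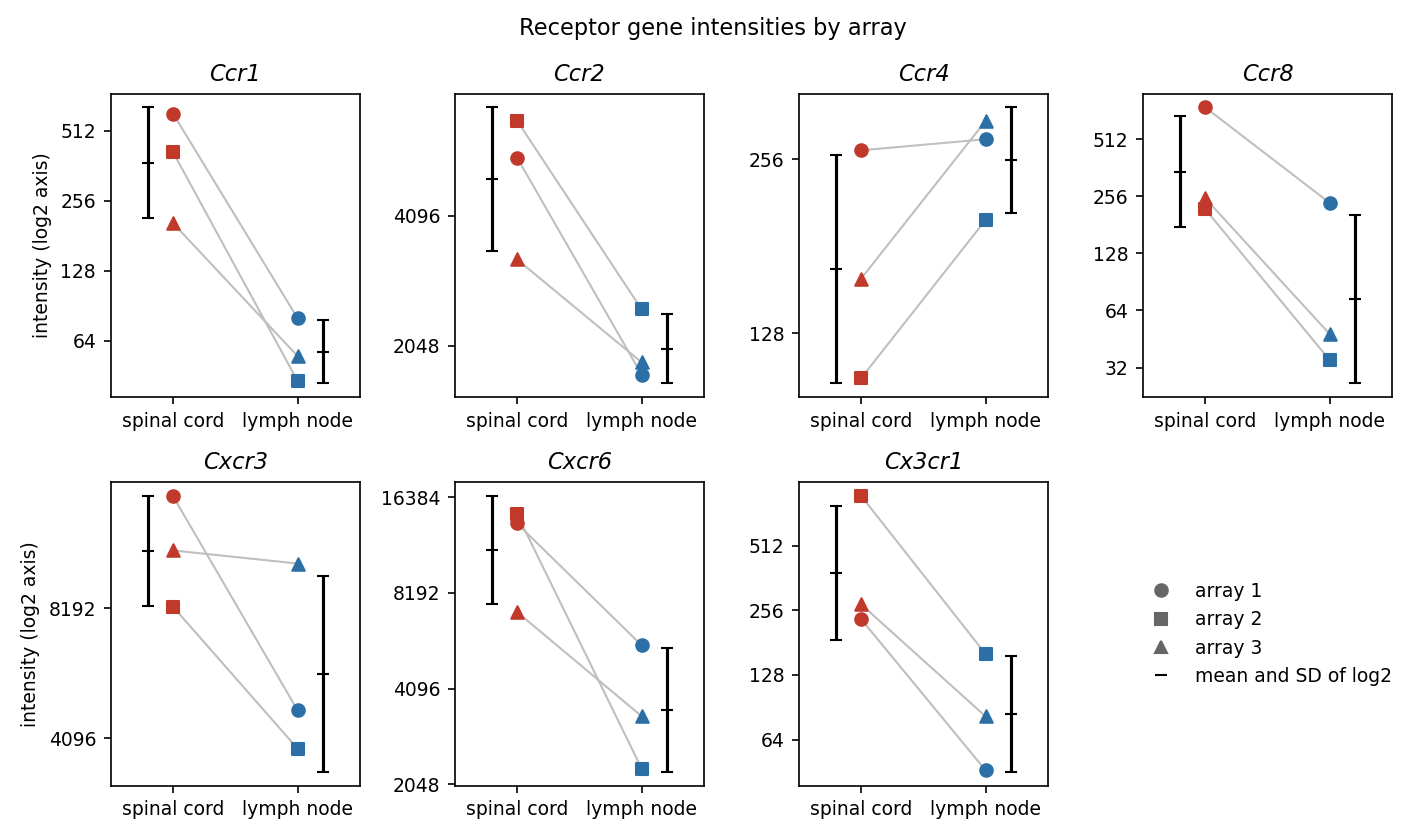
Intensity of the 7 receptor genes (log2 axis) in spinal cord (left, red) and lymph node (right, blue), 1 marker per array, with grey lines joining arrays of the same number and black bars for the mean ± SD of log2 values (n = 3 each). For Ccr1 the spinal cord arrays lie at 205 to 606 and the lymph node arrays at 43 to 80, while Ccr4, Ccr8 and Cxcr3 overlap between tissues.

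Ccr1, a receptor for Ccl3, Ccl5 and related chemokines, had the largest log2 change of the 7 representative probe sets. It read 606, 414 and 205 in spinal cord arrays 1, 2 and 3, against 80, 43 and 55 in lymph node arrays 1, 2 and 3. Every spinal cord array was above every lymph node array, and the groups were 6.48-fold apart. The log2 change was 2.70 ± 0.44 (SE), from log2 means of 8.54 ± 0.79 in spinal cord and 5.84 ± 0.45 in lymph node (SD, n = 3 each). The adjusted p was 0.0387 by limma and 0.00481 with the block. The second Ccr1 probe set, 1419610_at, was dim, with 54, 31 and 18 in spinal cord, against 17, 14 and 14 in lymph node, where the 20th percentile of all values was 25. It pointed the same way (1.06 ± 0.39) and was not called (adjusted p = 0.334 over 34958 probe sets by limma). The Ccr1 call was held in 1 of the 6 fits that each left out an array (left-one-out fits), namely without spinal cord array 3 (adjusted p = 0.0324), and the highest adjusted p was 0.161, without lymph node array 2. By limma its adjusted p was 0.0526 in the fit over probe sets, 0.114 with values below 25 set to 25, 0.439 with a myeloid covariate described below, and 0.0855 for the mean of both probe sets (1.88).

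Ccr2, the receptor for Ccl2, Ccl7 and Ccl12 that directs inflammatory monocytes and effector T cells, was bright in both tissues. Its brightest probe set, 1421186_at, read 5592, 6814 and 3245 in spinal cord, against 1754, 2484 and 1872 in lymph node. The groups did not overlap, and spinal cord array 3 was the lowest of its tissue. Its log2 change of 1.31 ± 0.30 (2.47-fold) had an adjusted p of 0.105 by limma and 0.0145 with the block. The other Ccr2 probe sets also separated the tissues but differed in size. Probe set 1421187_at read 1057, 1159 and 746 in spinal cord, against 163, 73 and 147 in lymph node, and its change was 3.01 ± 0.35 on the log2 scale (8.05-fold). It was the 1 receptor probe set of the 13 that was called with tissue alone (adjusted p = 0.0193 by limma over probe sets, where 1.48% of probe sets were called in either direction and 0.701% higher). Probe set 1460067_at read 1201, 794 and 634 in spinal cord, against 439, 351 and 335 in lymph node (1.18 ± 0.26), and 1421188_at read 372, 364 and 258 against 142, 164 and 180 (1.02 ± 0.19). All 4 had the same direction, and the largest and smallest changes stood 3.01 and 1.02 log2 units above 0. The call of 1421187_at was lost in 5 of the 6 left-one-out fits, with adjusted p up to 0.1. The mean of all 4 probe sets gave Ccr2 a log2 change of 1.63 and an adjusted p of 0.0183 by limma.

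**Figure D2:**
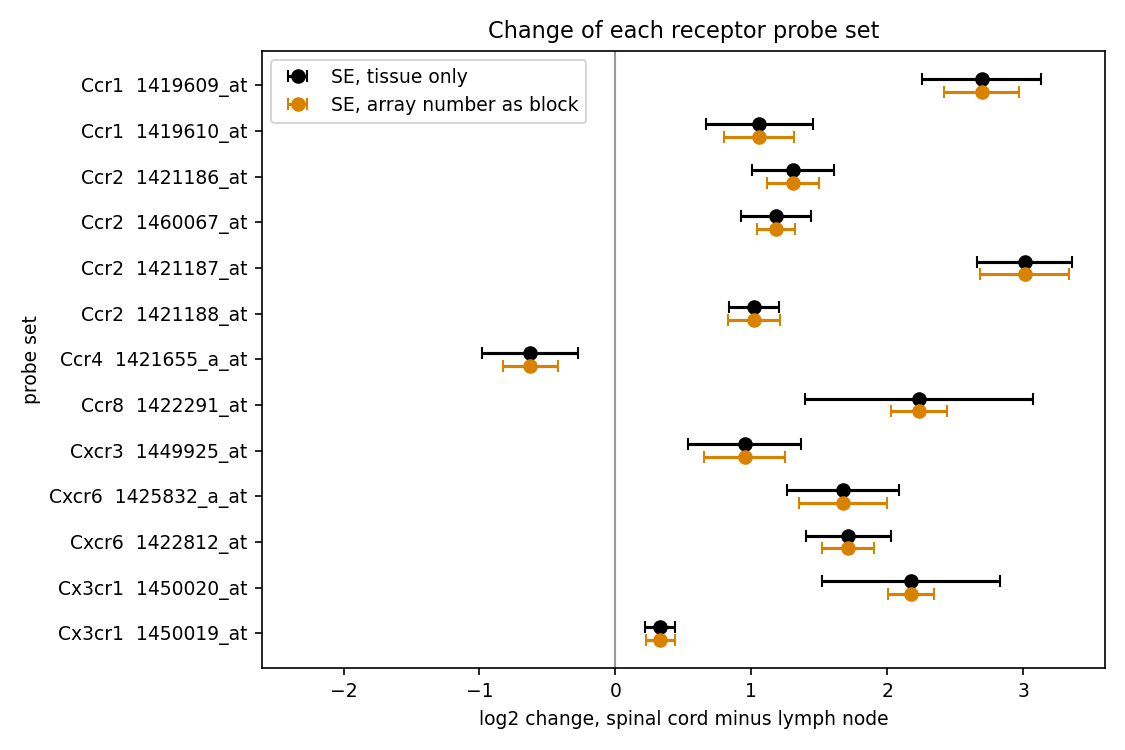
Log2 change (spinal cord minus lymph node) of each of the 13 receptor probe sets, with the SE of the fit with tissue only (black) and of the fit with the array number as a block (orange). All but the Ccr4 probe set lie above 0, from 0.33 for Cx3cr1 1450019_at to 3.01 for Ccr2 1421187_at.

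Cxcr6, the receptor for Cxcl16 found on activated and tissue-resident T cells, had high values in both tissues, at 13548, 14504 and 7134 in spinal cord, against 5606, 2295 and 3353 in lymph node. The tissues did not overlap, and spinal cord array 3 and lymph node array 1 lay nearest each other. Cxcr6 thus differed by 1.67 ± 0.41 on the log2 scale (3.19-fold), with an adjusted p of 0.122 by limma and 0.0297 with the block. Its second probe set, 1422812_at, read 8843, 8746 and 4261 in spinal cord, against 2071, 2462 and 1832 in lymph node. This probe set gave a near-identical change of 1.71 ± 0.32, with adjusted p values over probe sets of 0.0733 by limma and 0.0124 with the block.

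Cxcr3, the receptor for the interferon-inducible chemokines Cxcl9 and Cxcl10, was also bright in both tissues and was not called. It read 14941, 8271 and 11174 in spinal cord, against 4752, 3870 and 10417 in lymph node. Lymph node array 3 exceeded spinal cord array 2, so the groups overlapped, and the ratio within pairs of arrays 1, 2 and 3 was 3.14, 2.14 and 1.07. The log2 change was 0.95 ± 0.42, with a 95% interval from -0.06 to 1.96 for this gene alone and adjusted p values of 0.385 by limma and 0.105 with the block. The exact permutation p was 0.2. Over the left-one-out fits the change ran from 0.66 without lymph node array 2 (adjusted p = 0.739 by limma) to 1.38 without lymph node array 3 (adjusted p = 0.133). In the blocked fit without pair 1 it was 0.60.

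Ccr8 and Ccr4, receptors linked to type 2 and regulatory T cells, overlapped between the tissues. Ccr8, which binds Ccl1 and in mice Ccl8, read 753, 219 and 250 in spinal cord, against 236, 35 and 48 in lymph node. Array 1 was the highest in both tissues, and lymph node array 1 lay above spinal cord array 2, so the groups overlapped. Within pairs of the same number, spinal cord was 3.19, 6.26 and 5.21 times lymph node. The log2 change was 2.23 ± 0.83 with tissue alone (adjusted p = 0.297 by limma; exact permutation p = 0.2) and 2.23 ± 0.20 with the block (adjusted p = 0.00387 by limma). Without lymph node array 1 the change was 3.08, and without spinal cord array 1 it was 1.67.

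Ccr4, the receptor for Ccl17 and Ccl22, read 265, 107 and 159 in spinal cord, against 277, 201 and 298 in lymph node. It was the only receptor of the 7 with a lower mean in spinal cord, and the groups overlapped through spinal cord array 1. For Ccr4 the log2 change was -0.63 ± 0.35 (95% interval -1.48 to 0.23), with adjusted p values of 0.518 by limma and 0.113 with the block. The spinal cord to lymph node ratio was 0.957, 0.532 and 0.534 in pairs 1, 2 and 3. Leaving out spinal cord array 2 gave a change of -0.31 and leaving out array 1 of that tissue -0.97, and the value turned to 0.50 with the myeloid covariate described below (adjusted p = 0.99 by limma).

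Cx3cr1, the receptor for fractalkine (Cx3cl1), differed between array numbers in both tissues. Its brighter probe set, 1450020_at, read 233, 874 and 273 in spinal cord, against 46, 160 and 82 in lymph node. Array 2 was the highest in both tissues, and the groups did not overlap. Within pairs the ratio was 5.07, 5.46 and 3.33. The log2 change was 2.18 ± 0.65 with tissue alone (4.52-fold, adjusted p = 0.193 by limma) and 2.18 ± 0.17 with the block (adjusted p = 0.00271 by limma). The other probe set, 1450019_at, read 55, 57 and 60 in spinal cord, against 42, 49 and 46 in lymph node, giving 0.33 ± 0.11, which limma did not call (adjusted p = 0.285). The mean of both probe sets gave a change of 1.25 (adjusted p = 0.162 by limma). At the level of probe sets, 10 of the 13 separated the tissues, always with spinal cord higher (8.39% of all probe sets), and 9 were called higher with the block (2.94% of all probe sets). In 12 of the 13, spinal cord was higher in all 3 pairs of the same number (19.9% of all probe sets).

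By the brightest probe set of each gene, spinal cord array 1 was the highest of its tissue for 4 of the 7 receptors (Ccr1, Ccr4, Ccr8 and Cxcr3). Array 2 was the highest for the other 3 (Ccr2, Cxcr6 and Cx3cr1). In spinal cord, 14 of the 19 measured myeloid markers were also highest on array 2. Of the 19, 12 had the order array 2, array 3, array 1 from high to low, which Cx3cr1 shared. Neither count was made over all genes. Csf1r, the receptor of macrophage colony-stimulating factor, read 237, 1486 and 754 in spinal cord, against 99, 57 and 98 in lymph node. Lyz2, a lysozyme gene of myeloid cells, read 245, 1771 and 563 in spinal cord, against 78, 81 and 78 in lymph node. Of 19 measured myeloid markers, 0 were called with tissue alone and 7 were higher with the block, by limma, and 14 separated the tissues with spinal cord higher. The summed intensity of the list ran from 11960 to 18961 in spinal cord and from 14522 to 15393 in lymph node. Ctss alone, a protease gene that lymphoid antigen-presenting cells also express, made up most of it, and without Ctss the sums were 1513, 5806 and 3328 in spinal cord, against 993, 939 and 1082 in lymph node. Itgam read 26, 26 and 27 in spinal cord, against 25, 24 and 22 in lymph node, near the low end of the arrays, and Adgre1 read 46, 120 and 89 against 43, 34 and 34. The microglial gene P2ry12 read 28, 40 and 35 in spinal cord, against 20, 24 and 26 in lymph node. By brightest probe set, Ccr1 was highest on the spinal cord array where Csf1r and Lyz2 were lowest. Ccr2, Cxcr6 and Cx3cr1 were, by theirs, highest where Csf1r and Lyz2 were highest. Other probe sets differed in part. Ccr2 1460067_at and 1421188_at and Cxcr6 1422812_at were highest on spinal cord array 1, and Cx3cr1 1450019_at on array 3. Ccr2 1421187_at was highest on array 2 and Ccr1 1419610_at on array 1. Among lymph node arrays, array 2 was the highest for Cx3cr1 and Ccr2 by brightest probe set and for 6 of the 19 markers. With the myeloid list mean as a covariate, limma called 0 of 18194 genes (1183 had an unadjusted p below 0.05), and the log2 change was 3.40 for Ccr1, 1.30 for Ccr2, 1.71 for Cxcr6 and 0.74 for Cx3cr1. The mean log2 value of the list was 6.48 to 7.69 in spinal cord, against 5.91 to 6.08 in lymph node, so in this fit tissue and myeloid signal cannot be told apart.

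**Figure D3:**
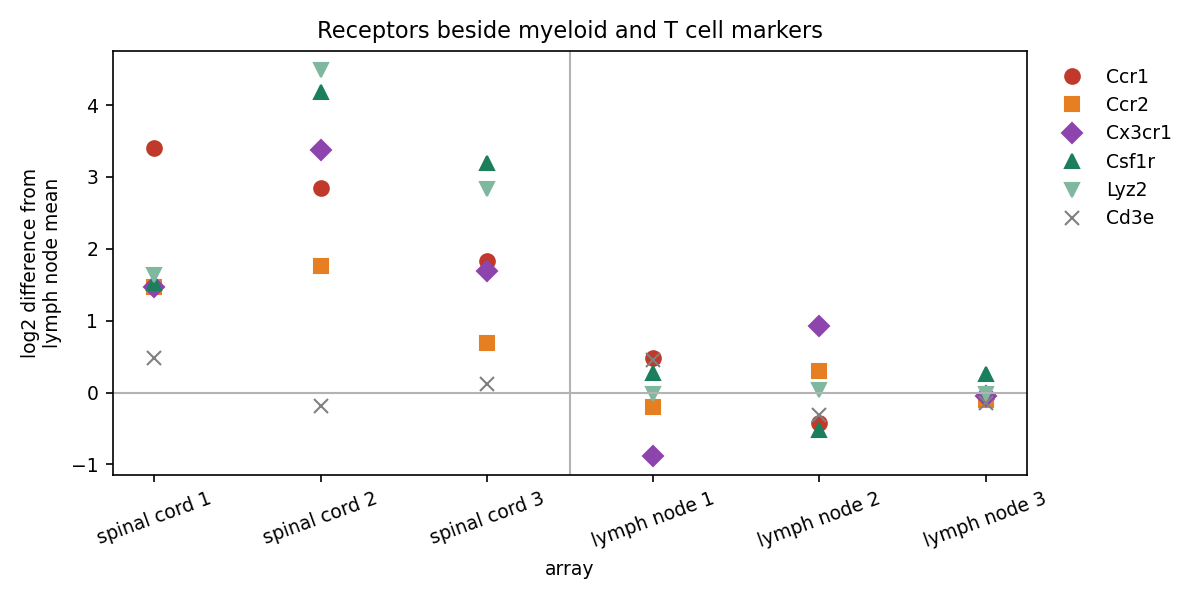
Log2 difference of each array from the lymph node mean for the receptors Ccr1, Ccr2 and Cx3cr1, the myeloid genes Csf1r and Lyz2, and the T cell gene Cd3e, with spinal cord arrays on the left. In spinal cord arrays 1, 2 and 3 Lyz2 stands at 1.63, 4.49 and 2.83, Ccr1 at 3.40, 2.85 and 1.84, and Cx3cr1 at 1.46, 3.37 and 1.69.

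Defining genes of CD4+ T cells were bright in both tissues. Cd3e, a chain of the T cell receptor complex, read 2153, 1358 and 1679 in spinal cord, against 2124, 1248 and 1405 in lymph node. Cd4 read 6371, 4101 and 2763 against 7669, 2063 and 2823, and the memory marker Cd44 read 10631, 8502 and 6312 against 7087, 8551 and 6456. None of 11 measured T cell genes was called, with or without the block. The CD8 gene Cd8a read 179, 165 and 225 in spinal cord, against 182, 121 and 186 in lymph node, and the natural killer gene Ncr1 64, 63 and 51 against 60, 52 and 50. All 4 measured genes of the natural killer and innate lymphoid list had positive changes (median 0.32), with 0 called by tissue alone and 1 by the block. That 1 was Gzma, named after its values were seen, at 309, 806 and 1321 in spinal cord, against 83, 201 and 247. Its adjusted p was 0.198 by limma and 0.00188 with the block. The neutrophil gene S100a8 read 53, 752 and 122 in spinal cord, against 59, 30 and 36 in lymph node, with its high value on array 2. Further genes of other lineages were called, with Itgax of the dendritic list (2.88-fold), Gpr34 of the microglial list (4.12-fold) and Mmp9 of the neutrophil list (2.68-fold) higher in spinal cord, and Ighm, the immunoglobulin heavy chain gene, 4.73-fold lower. Each was the only called gene of its list, 1 of 6 dendritic, 1 of 6 microglial, 1 of 8 neutrophil and 1 of 6 B cell genes measured. The median log2 changes of these lists were 0.17, 0.56, 1.06 and -0.10. Itgax and Ighm were called in 4 of the 6 left-one-out fits, Gpr34 in 2 and Mmp9 in 0. No neural, CD8 or memory-list gene was called. The part of other cells in the receptor values was not tested.

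The remaining chemokine receptors moved in both directions. Of 16 measured, 2 were higher in spinal cord and 4 lower with tissue alone, and 4 and 4 with the block, with a median log2 change of 0.13, against 1 higher and 0 lower among the 7 inflammatory receptors. Those that fell were Cxcr5, which guides cells into B cell follicles (-5.58 ± 0.27), Ccr7, which guides them to the T cell zone (-2.92 ± 0.49), Ccr6, a receptor of type 17 cells (-1.89 ± 0.25), and Ccr10, a skin-homing receptor (-1.49 ± 0.21). Those that rose were Ccr9, the gut-homing receptor, at 78, 85 and 77 in spinal cord against 33, 30 and 27 in lymph node (1.42 ± 0.12, adjusted p = 0.00777 by limma), and Cmklr1, a chemerin receptor, at 95, 112 and 62 against 35, 33 and 37 (1.32 ± 0.23, adjusted p = 0.0482). Cxcr5 and Ccr9 were called in all 6 left-one-out fits, Ccr6 in 2, and Ccr7, Ccr10 and Cmklr1 in 1. Cxcr4, named here after its values were seen, read 920, 1039 and 2712 in spinal cord, against 305, 437 and 965 in lymph node (1.44 ± 0.57, adjusted p = 0.331 by limma and 0.00318 with the block). Ccrl2, also named after its values were seen, read 440, 791 and 1648 against 183, 123 and 168. Its tissue groups did not overlap (2.41 ± 0.48, adjusted p = 0.0676 by limma and 0.0172 with the block).

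**Figure D4:**
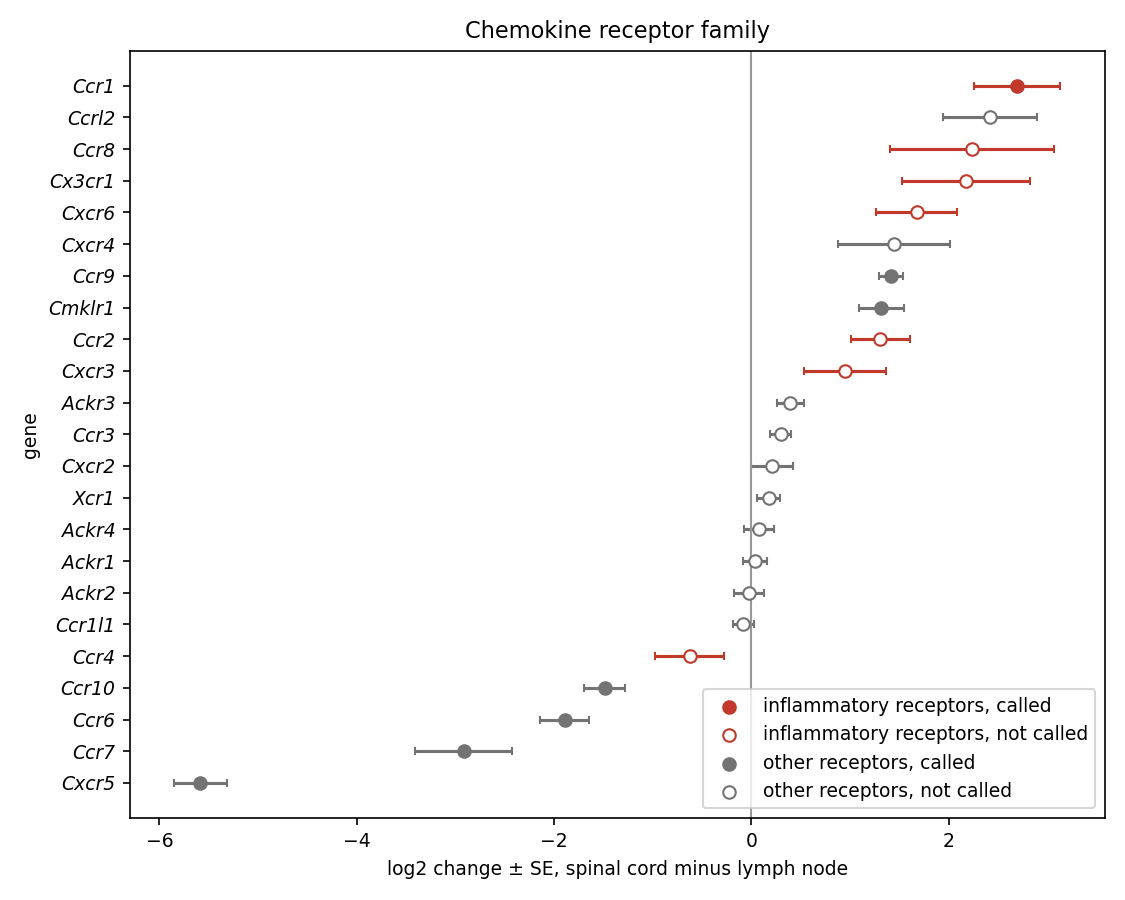
Log2 change ± SE (spinal cord minus lymph node, n = 3 arrays each) of the 7 inflammatory receptors (red) and the 16 other chemokine receptors measured (grey), filled where called by limma with tissue alone. The inflammatory receptors run from -0.63 (Ccr4) to 2.70 (Ccr1), and Cxcr5 lies lowest of all at -5.58.

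Genes for the ligands of these receptors were measured in the same bulk samples. All 17 had positive log2 changes, with a median of 0.74, and 2 were called higher (4 with the block). In spinal cord, 8 of the 17 were highest on array 2 and 6 had the array order of Csf1r and Lyz2. Among these, named after their values were seen, were Cxcl9 at 63, 534 and 265 in spinal cord, against 48, 52 and 50 in lymph node, and Ccl6 at 30, 205 and 175 against 26, 20 and 26. Ccl8, at 43, 46 and 45 in spinal cord, had the same order with little spread. How many of all genes had either pattern was not counted. The part of myeloid cells in the ligand values was not tested. Cxcl10, a ligand of Cxcr3, read 764, 717 and 785 in spinal cord, against 205, 126 and 139 in lymph node (2.30 ± 0.20, adjusted p = 0.00777 by limma). Ccl1, the ligand of Ccr8, read 638, 668 and 2503 in spinal cord, against 70, 78 and 108 in lymph node (3.61 ± 0.55, adjusted p = 0.0335 by limma), and was called in 1 of the 6 left-one-out fits. Ccl5, a ligand of Ccr1 named after its values were seen, was called only with the block, at 2213, 3525 and 9011 against 465, 1103 and 3349 (1.78 ± 0.83, adjusted p = 0.414 by limma and 0.00491 with the block). Ligands of Ccr4 showed small changes, with Ccl17 at 0.34 ± 0.15 and Ccl22 at 0.17 ± 0.14, and Cx3cl1, the ligand of Cx3cr1, at 0.02 ± 0.15. These 3 were not called.

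Downstream of the receptors, 2 of 29 measured signalling genes were higher and none lower, and both were regulators of G protein signalling, which shorten the signal of active G proteins. Rgs1 read 11757, 12369 and 7661 in spinal cord, against 1287, 1337 and 970 in lymph node (3.13 ± 0.23, adjusted p = 0.00533 by limma). Rgs16 read 3611, 4175 and 2791 against 296, 340 and 519 (3.22 ± 0.26, adjusted p = 0.00655). Both were called in all 6 left-one-out fits. The list median was 0.13, and with the block 5 genes were called, all higher.

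Among 14 measured transcription factors of helper cells, 2 were called, both higher. Tbx21, which encodes T-bet, a factor known to act on Cxcr3, read 1688, 1826 and 1477 in spinal cord, against 384, 427 and 372 in lymph node (2.07 ± 0.13, adjusted p = 0.00365 by limma), in all 6 left-one-out fits. Zeb2, a transcriptional repressor known from terminally differentiated effector T cells, read 334, 456 and 149 against 38, 65 and 28 (2.79 ± 0.49, adjusted p = 0.0488), and was called in 1 of those 6 fits. Runx3, of the factor family whose core is shown in the promoters above, read 1416, 1893 and 2146 in spinal cord, against 385, 879 and 869 in lymph node (1.43 ± 0.36, adjusted p = 0.13 by limma and 0.00864 with the block). Gata3, the type 2 factor, had a change of -0.05 ± 0.65. With the block 5 factors were higher and 3 lower, and the list median was 0.02.

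For each receptor, the genes with the most similar profile over the 6 arrays were found among 10915 genes above the 40th percentile of mean intensity, as the smallest root mean square difference in log2 values after subtracting each gene's own mean. Since both tissues enter, a shared difference between tissues enters the likeness, and no test was made. The differences were not scaled to a gene's own spread, so they can be larger for receptors that vary more across arrays. The SDs of log2 values in spinal cord and lymph node were 0.66 and 0.30 for Ccr4, and 0.98 and 1.48 for Ccr8. Ccr4 had the closest neighbours, Ssh1 (0.129), Thap7 (0.134) and Ptgfrn (0.139), and Ccr2 came next with Ptpn3 (0.154), Ern1 (0.157) and Cass4 (0.164). Ccr1 was nearest to Prrt1 (0.215), the tyrosine kinase gene Fes (0.234) and Cd24a (0.250). Cxcr3 was nearest to Septin8 (0.264), Tnfsf11, which encodes RANK ligand (0.284), and Prss30 (0.292), and Cxcr6 to Hid1 (0.272), Spats2 (0.288) and Ctbp2 (0.308). Cx3cr1 was nearest to Neurl3 (0.334), C920009B18Rik (0.401) and Cd93 (0.476). Ccr8 was nearest to Crispld2 (0.412), the interferon-inducible gene Ifitm1 (0.458) and the AP-1 gene Junb (0.473), so its own profile had no neighbour as close as those of the other receptors at rank 1.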

How the data were processed

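Per the labels' protocols, RNA was purified with RNeasy columns and biotin-labelled cRNA was made in 2 amplification cycles from 1 ng of total RNA. The deposited intensity values were made by the authors with RMA, per the submitters' processing notes (version not given in the sources used here). They were whole numbers from 9 to 39505 on a linear scale, with array medians of 68 to 71, and log2 was taken here. The number of arrays limits the precision. Groups follow the titles. The labels name no separate animals, and p-values then reflect only how far these samples lie apart, possibly for technical reasons. At least 93.55% of probe sets differed between any 2 arrays. The ratio of 5' to 3' actin signal lay between 0.203 and 0.405 in spinal cord. In lymph node arrays 1, 2 and 3 it was 0.483, 0.0886 and 0.568, so array 2 was the lowest of all. Without lymph node array 2, tissue alone called 94 genes by limma. The part of RNA quality in the receptor values was not tested.

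Probe sets were named from the platform annotation, using the 34958 that named 1 gene. Of these, 34754 matched the RefSeq gene table of GRCm38.p6 by identifier and 0 symbols changed. Each of 18194 genes was represented by its probe set of highest mean. Tests used limma 3.58.1 (lmFit, eBayes) in R 4.3.3, two-sided, over all genes and separately over all 34958 probe sets, with an adjusted p below 0.05 as a call. Receptors, lists and tests were chosen with earlier results of these data known. Of 170 list and marker entries, 155 were measured and the rest were not analysed here. The genes named were the 7 receptors, up to 6 called members of each list, 3 like profiles per receptor and a set of cell markers, and any named beyond this were chosen after their values were seen. Promoter sequences came from RefSeq, and probe sequences were not used here. Python 3.11.15, pandas 2.3.3 and matplotlib 3.10.9 handled tables and figures.

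Arrays of the same number correlated at 0.576, 0.509 and 0.777 in their deviations from the tissue means across genes, which are not independent, and other arrays of different tissues at -0.569 to 0.00503. Centring on tissue means builds in part of this contrast. The numbers were treated as pairs on these values alone, since the labels state none. On simulated data of 18194 genes with pair effects, tissue alone found 64% of those shifted by 1 log2 unit and 86% at 2, and the block 64% and 88%. Without pair effects tissue alone found 50% and 72%, and the block 2% and 54%. False calls numbered 1 with tissue alone and 11 with the block where pair effects were simulated, and 9 and 6 without them. The simulated pair effects took the same share of the variance in every gene, which real genes need not have. Alternatives were the block, a minimum mean intensity, leaving out every array in turn, median centring, quantile normalization, another variance model, a floor, the mean of a gene's probe sets and a myeloid covariate. Omitting a whole pair from the blocked fit was added after seeing the data.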

Additional observations from a re-analysis of the deposited data

How the results depend on the processing

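The count of called genes, 463 with tissue alone by limma, was 2022 with the replicate block (668 higher, 1354 lower), 161 with the floor and 0 with the myeloid covariate (1183 at an unadjusted p below 0.05), and it ran from 81 (without spinal cord array 2) to 312 (without lymph node array 1) without single arrays. The count of called receptor genes, 1 as reported, was 5 with the block, 0 with the floor (4 at an unadjusted p below 0.05), 0 with the myeloid covariate (2) and 0 to 2 without single arrays (4 to 5 at an unadjusted p below 0.05). It was 0 without spinal cord array 1 or 2 or any 1 lymph node array and 2 without spinal cord array 3. Of all genes, 2619 had an unadjusted p below 0.05 with the floor, and 1926 to 2847 without single arrays. The count of called probe sets, 519 as reported, was 2671 with the block, 137 with the floor and 39 to 265 without single arrays. With the block and both arrays of number 1 left out, 329 genes and 1 receptor (Ccr8, adjusted p = 0.0412 by limma) were called. Without number 2 or number 3 the block called 0 genes and 0 receptors (2984 and 2591 genes, and 5 and 6 receptors, at an unadjusted p below 0.05), with 2 arrays per tissue left. Ccr1 also lost its call with the floor (adjusted p = 0.114), the mean of its probe sets (1.88, adjusted p = 0.0855) and the covariate (0.439), against a range of 0.00481 to 0.439 over its alternatives. In the covariate fit tissue and myeloid signal cannot be told apart, and there Ccr4 changed sign, to 0.50 ± 0.43 (SE, adjusted p = 0.99 by limma). The other 6 receptors kept a positive change under all 17 alternatives. The fits without arrays had fewer samples, and otherwise the cause was not tested.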

Other observations

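In the RefSeq gene table of GRCm38.p6, Cx3cr1 and Ccr8 are neighbours on chromosome 9, and further along the same chromosome Cxcr6, Xcr1, Ccr1, Ccr1l1, Ccr3 and Ccr2 follow in that order. In the first pair the log2 changes were 2.18 for Cx3cr1 and 2.23 for Ccr8. In the second stretch, Cxcr6, Ccr1 and Ccr2 had log2 changes of 1.67, 2.70 and 1.31, and the genes between them had small ones, at 0.18 for Xcr1, -0.08 for Ccr1l1 and 0.30 for Ccr3. Those 3 genes were dim on every array. Xcr1 read 23 to 24 in spinal cord, against 19 to 23 in lymph node, Ccr1l1 27 to 29 against 28 to 31, and Ccr3 22 to 24 against 18 to 20, where the 20th percentile of all values was 25. Ccr9, ahead of Cxcr6 in this order and also dim in lymph node, rose by 1.42. Ccr4, on the same chromosome, had a change of -0.63 that was not called.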
